A study of Mus musculus with 6 samples.

Results

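The enzymes that make long-chain fatty acids and insert their double bonds were examined in Tomato+ cells from mouse knee cartilage. The 10 genes were chosen by name: Acly, Acaca, Fasn, Scd1, Scd2, Elovl1, Elovl5, Elovl6, Fads1 and Fads2, out of 17854 genes in the deposited table. The 2 groups, each of 3 libraries from male C57BL/6 mice and labelled chondrocyte, were compared. The InjectPrrx libraries came from Tomato+ cells recovered from the cartilage of mice with knee osteoarthritis (KOA, set off by cutting a knee ligament), whose joints had received Tomato+ mesenchymal stromal cells (MSCs). Those MSCs had been sorted from the inguinal white fat of Prrx1-Cre; R26tdTomato mice. They are called MSC-derived Tomato+ cells here, a name that rests on the labels and the study's description of the sort. The markers given below go against the label chondrocyte in these libraries: chondrocyte genes were low and genes of neutrophils, macrophages and red cell precursors high. What the sorted cells were is therefore in doubt, and every fold compares the libraries as labelled. The NativePrrx libraries came from Tomato+ cells that belonged to the cartilage of Prrx1-Cre; R26tdTomato mice, and are called endogenous Tomato+ cells. In both groups the Tomato label was switched on by the same Prrx1-driven Cre, which marks every descendant of a Prrx1-expressing cell and not a single cell type. Tissue of origin, passage through an injection and a diseased host joint all differed together between the groups, so their parts cannot be told apart. Ages are not in the labels.

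Fatty acid synthesis starts in the cytosol, where Acly splits citrate to give acetyl-CoA, Acaca carboxylates it to malonyl-CoA, and Fasn builds palmitate. Elovl elongases then lengthen the chain in the endoplasmic reticulum, Scd enzymes place the first double bond of monounsaturated fatty acids, and Fads2 and Fads1 add further double bonds in the route to arachidonic acid. SREBP-1c (from Srebf1), ChREBP (Mlxipl) and the liver X receptors (Nr1h2, Nr1h3) are known activators of many of these genes, and AMP-activated kinase inhibits acetyl-CoA carboxylase.

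In MSC-derived cells 7 were lower, 2 (Elovl5 and Elovl1) were higher and Fads1 did not pass the test, with Scd1 14.8-fold, Fads2 14.5-fold, Elovl6 8.72-fold and Fasn 4.27-fold lower. All 10 were among the 14289 genes with enough counts to be tested (edgeR quasi-likelihood test on RSEM expected counts, Benjamini-Hochberg adjusted p of at most 0.05). Over all tested genes 30.3% were called lower and 31.3% higher. The median log2 fold change was -1.35 over the 10 genes and 0.05 over all tested genes, where a negative value means lower in MSC-derived cells. The 3 values of one group lay wholly above those of the other for all 10 genes, on a scale of CPM (counts per 1000000 reads), corrected for composition by the TMM method. MSC-derived values were below for 8 of them and above for 2, while over all tested genes 34.1% lay below, 38.2% above and 72.4% either way.

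**Figure D1:**
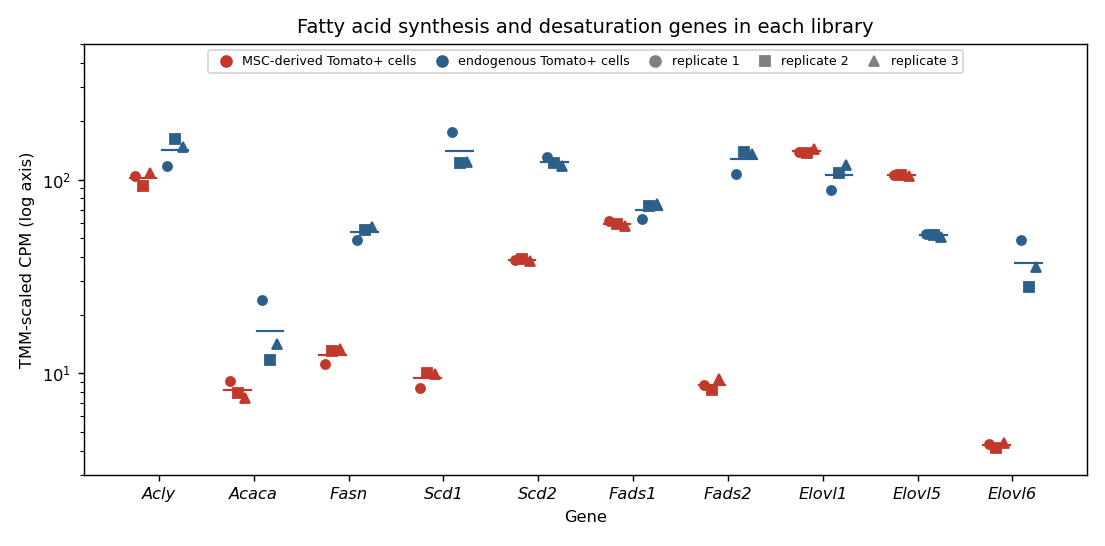
Each point is the TMM-scaled CPM (log axis) of a gene in 1 library, in red for MSC-derived and in blue for endogenous Tomato+ cells, with a marker shape for each replicate number and a bar at the group mean. The widest gaps are those of Scd1, Fads2 and Elovl6, while the groups lie close together for Fads1 and Elovl1.

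Depth and scaling bear on these values. Library totals were 22060628 to 24881796 expected counts, so that 3 counts corresponded to 0.121 to 0.136 CPM. The endogenous libraries varied more than the MSC-derived ones, with a biological coefficient of variation of 35.3% against 6.77%. Endogenous replicate 1 stood apart with 3459 genes at 0 counts, against 1338 and 1395 in the other 2. Without it 8 of the 10 genes were lower and 2 higher. Calls rose over all genes too, to 5686 lower and 5563 higher, from 4333 and 4468 with all libraries. The choice of scale moved the balance of calls, and the count test called 4468 genes higher and 4333 lower. TPM (transcripts per 1000000) is corrected for length and scaled to a fixed total. A limma test on log2(TPM + 1) called 3124 higher and 5962 lower, with a median of -0.28 over all genes. FPKM is also corrected for length but is not scaled to a fixed total. It summed to 808701 to 813572 in MSC-derived and to 504768 to 573603 in endogenous libraries. On this scale the balance of calls went the other way. Limma on log2(FPKM + 1) called 5464 higher and 3955 lower, with a median of 0.13. On the log2(TPM + 1) scale 8 of the 10 genes were lower and 1 (Elovl5) higher, and on log2(FPKM + 1) 6 were lower and 2 higher.

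The markers of the sorted populations differed widely. The 10 chondrocyte markers were all lower in MSC-derived cells, with summed levels of 448 to 460 TPM against 25091 to 26598 TPM, and each of the 10 had counts in every library. The 8 osteoblast markers were also all lower (569 to 588 against 53319 to 68803 TPM). Within the endogenous libraries the osteoblast sum was thus above the chondrocyte sum. All 10 markers were higher in each of the leukocyte list (9417 to 9836 against 443 to 597 TPM), the macrophage list (13891 to 14214 against 58.8 to 75.5 TPM), the neutrophil list (147455 to 156141 against 8256 to 11598 TPM) and the erythroid list (79733 to 82011 against 18289 to 24703 TPM). Ptprc, the CD45 gene that defines leukocytes, had 8812, 8926 and 8136 counts in MSC-derived and 604, 340 and 394 in endogenous libraries. Of 10 adipocyte markers 7 were tested, 3 higher and 4 lower, with summed levels of 530 to 575 against 394 to 413 TPM. Most of the MSC-derived sum was Fabp4 (475, 491 and 452 against 64.9, 73.6 and 75.9 TPM). Most of the endogenous sum was Adipoq (0.580, 1.36 and 1.49 against 264, 255 and 278 TPM). Adipoq, which encodes the fat cell hormone adiponectin, had 12, 27 and 28 counts in MSC-derived and 3311, 3635 and 4153 in endogenous libraries. Fabp4, a fatty acid carrier of fat cells and macrophages, had 4605, 4587 and 4002 counts against 384, 495 and 537. Cidea, a lipid droplet protein, was at 0 in all 3 MSC-derived libraries and at 116, 28 and 27 counts in the endogenous ones. The part of these cell types in the enzyme values was not tested, and in bulk RNA a smaller share of expressing cells and less RNA per cell cannot be told apart.

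The stretches before the transcription starts of 4 genes are shown, because Fasn, Fads2 and Elovl6 were among the most strongly lower genes and Elovl5 was the higher gene whose call held in every setting. They are RefSeq sequences on GRCm38.p6, another build than the mm9 that the submitters list, and each gives the 250 bases before the start, 5′ to 3′ on the gene's own strand. Capitals mark matches on either strand to the CCAAT box (CCAAT) or the E-box (CACGTG). The windows are chr11:120824548-120824797 (minus strand) for Fasn, chr19:10101504-10101753 (minus) for Fads2, chr3:129532136-129532385 (plus) for Elovl6 and chr9:77917115-77917364 (plus) for Elovl5.
Fasn: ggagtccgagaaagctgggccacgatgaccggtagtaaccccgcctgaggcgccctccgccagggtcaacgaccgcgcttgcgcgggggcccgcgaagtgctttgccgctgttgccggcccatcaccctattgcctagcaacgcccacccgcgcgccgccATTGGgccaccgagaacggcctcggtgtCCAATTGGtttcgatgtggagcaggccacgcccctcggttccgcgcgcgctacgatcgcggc
Fads2: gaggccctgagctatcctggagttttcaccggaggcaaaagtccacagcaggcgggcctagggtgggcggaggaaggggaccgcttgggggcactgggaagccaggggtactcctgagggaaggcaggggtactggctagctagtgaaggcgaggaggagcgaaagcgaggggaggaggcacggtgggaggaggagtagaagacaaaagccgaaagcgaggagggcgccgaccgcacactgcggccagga
Elovl6: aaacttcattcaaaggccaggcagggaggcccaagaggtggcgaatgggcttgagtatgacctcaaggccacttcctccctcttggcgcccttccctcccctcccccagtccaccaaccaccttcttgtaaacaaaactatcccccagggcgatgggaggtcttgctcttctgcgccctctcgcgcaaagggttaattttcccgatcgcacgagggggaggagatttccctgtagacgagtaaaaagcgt
Elovl5: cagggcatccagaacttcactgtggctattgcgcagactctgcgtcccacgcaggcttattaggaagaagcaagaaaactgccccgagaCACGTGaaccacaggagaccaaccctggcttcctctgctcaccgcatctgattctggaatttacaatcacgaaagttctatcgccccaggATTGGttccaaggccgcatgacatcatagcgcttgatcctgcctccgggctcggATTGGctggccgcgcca

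The Fasn window held 3 CCAAT matches, beginning 90, 62 and 59 bases before the start, the last 2 of them overlapping. The Elovl5 window held 2 CCAAT matches, 71 and 17 bases before the start, and an E-box 161 bases before it. The Fads2 and Elovl6 windows held neither motif. RefSeq entries were matched for 7 of the 10 genes, in 8 windows; Scd1, Scd2 and Fads1 had none. CCAAT was in 3 of the 8 windows and in 33.8% of the 32851 mouse promoters of that table. CACGTG was in 1 of the 8 and in 6.02% of all. The core of the sterol regulatory element, searched as TCACNCCAC, was in 0 of the 8 and in 1.05% of all, which says only that these letters are not in these windows.

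The 3 genes that lead from citrate to palmitate were lower in MSC-derived cells. Fasn, the synthase, was measured at 11.2, 13.0 and 13.3 CPM in MSC-derived and at 48.6, 55.0 and 56.7 CPM in endogenous libraries. The groups were far apart relative to their spread (12.5 ± 1.15 against 53.4 ± 4.27 CPM, mean ± SD, n = 3 each). The log2 fold change was -2.09 (SE 0.13, adjusted p = 5.38e-06), and leaving out any 1 library gave -2.21 to -2.01.

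Acaca, whose product commits carbon to fatty acids, was at 9.15, 7.96 and 7.43 CPM in MSC-derived libraries. In endogenous libraries it was at 23.9, 11.7 and 14.1 CPM. The first endogenous library was thus highest and the groups did not overlap. The difference was 2.03-fold (log2 fold change -1.02, SE 0.28, adjusted p = 0.0161), and it missed the threshold without MSC-derived replicate 2 (-0.99, adjusted p = 0.0608) or 3 (-0.95, adjusted p = 0.0656). Without endogenous replicate 1 it was -0.71.

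Acly, the citrate-splitting enzyme, was at 104, 93.1 and 108 CPM in MSC-derived and at 118, 162 and 147 CPM in endogenous libraries. Endogenous replicate 1, the lowest of its group, lay just above the highest MSC-derived value. The change was the smallest of the 7 called lower (1.40-fold, log2 fold change -0.49, SE 0.13, adjusted p = 0.0124), and it missed the threshold without MSC-derived replicate 2 (-0.42, adjusted p = 0.0620).

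The delta-9 desaturases, which turn palmitoyl-CoA and stearoyl-CoA into palmitoleoyl-CoA and oleoyl-CoA, were both lower. Scd1 was at 8.41, 10 and 9.88 CPM in MSC-derived libraries, against 175, 122 and 123 CPM in endogenous ones. No MSC-derived value came near the endogenous range. Its log2 fold change of -3.89 (SE 0.18, adjusted p = 1.51e-06) stood beside that of Fads2 (-3.86), and 4.46% of all tested genes had a lower one. Which of these was lower depended on the setting: without endogenous replicate 1 Scd1 was at -3.75 and Fads2 at -4.03.

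Scd2, a form known for its expression in brain and in early life, was at 38.3, 39.0 and 38.0 CPM in MSC-derived libraries. In endogenous libraries it was at 130, 122 and 118 CPM. Both groups were tight, and the difference was 3.21-fold (log2 fold change -1.68, SE 0.08, adjusted p = 1.6e-06).

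Scd1, Scd2, Scd3 and Scd4 had expected counts that were not whole numbers in all 6 libraries, unlike the other 8 genes. RSEM gives such values where it divides reads between genes, but which genes shared reads here was not tested. As paralogs Scd1 and Scd2 may have been split uncertainly, so their sum is given too. It was 46.7, 49.0 and 47.9 CPM in MSC-derived libraries and 305, 244 and 241 CPM in endogenous ones (47.9 ± 1.17 against 263 ± 36.1). Scd3 had 3, 2 and 9 counts against 7, 10 and 8, and Scd4 had 4, 5 and 1 against 40, 22 and 9, both too few to be tested. As annotated, Scd3, Scd2, Scd4 and Scd1 follow each other on chromosome 19 with 0 protein-coding genes between them.

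Of the front-end desaturases Fads2 passed the test and Fads1 did not. Fads2, the delta-6 desaturase, was at 8.68, 8.20 and 9.31 CPM in MSC-derived libraries and at 107, 138 and 136 CPM in endogenous ones. The log2 fold change was -3.86 (SE 0.14, adjusted p = 4.3e-07), and it lay between -4.03 and -3.81 when any 1 library was left out.

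Fads1, the delta-5 desaturase that acts after Fads2, was at 61.1, 59.3 and 57.5 CPM in MSC-derived libraries. In endogenous libraries it was at 62.2, 72.8 and 74.8 CPM. Endogenous replicate 1 lay just above the highest MSC-derived value, so that the groups did not overlap. The log2 fold change was -0.24 (SE 0.10, adjusted p = 0.0714). Without endogenous replicate 1 it was -0.37 (adjusted p = 3.23e-05), and on the log2(TPM + 1) scale -0.65 (limma, adjusted p = 0.000379). Fads3, Fads2 and Fads1 are neighbours on chromosome 19, again with 0 protein-coding genes between them. Fads3, a desaturase of sphingoid bases, was named after its values were seen. It was at 12.5, 14.4 and 12.4 CPM against 66.9, 85.7 and 88.8 CPM and was lower (log2 fold change -2.62, SE 0.15, adjusted p = 3.57e-06).

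The elongases moved in both directions. Elovl6, which extends palmitate to stearate, was at 4.30, 4.14 and 4.37 CPM in MSC-derived libraries. In endogenous libraries it was at 48.7, 27.8 and 35.4 CPM. The endogenous values ranged more widely than the MSC-derived ones but stayed far above them (log2 fold change -3.12, SE 0.23, adjusted p = 1.62e-05).

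Elovl5, which elongates the polyunsaturated products of Fads2, was at 106, 106 and 104 CPM in MSC-derived libraries and at 52.3, 51.8 and 50.5 CPM in endogenous ones. It was thus 2.05-fold higher in MSC-derived cells with little spread in either group (log2 fold change 1.03, SE 0.07, adjusted p = 1.32e-05). On the log2(TPM + 1) scale the difference was smaller, at 0.57 (limma, adjusted p = 0.00110).

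Elovl1, which makes saturated and monounsaturated very long chains for sphingolipids, was at 139, 137 and 143 CPM in MSC-derived libraries. In endogenous libraries it was at 88.4, 108 and 119 CPM. It was 1.33-fold higher in MSC-derived cells (log2 fold change 0.41, SE 0.12, adjusted p = 0.0164), but on the log2(TPM + 1) scale the sign turned (-0.01, limma, adjusted p = 0.907). It also missed the threshold without MSC-derived replicate 1 (0.42, adjusted p = 0.0522), MSC-derived replicate 3 (0.40, adjusted p = 0.0585) or endogenous replicate 2 (0.39, adjusted p = 0.0738). Without endogenous replicate 1 it was 0.25.

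Levels were set against each other per transcript length, as TPM. In MSC-derived cells Elovl1 was the most abundant (108 ± 1.38 TPM), followed by Elovl5 (52.1 ± 0.856), Acly (30.8 ± 2.12), Fads1 (23.3 ± 0.844) and Scd2 (9.37 ± 0.180). Fads2 (4.12 ± 0.235), Scd1 (2.60 ± 0.248), Fasn (1.74 ± 0.162), Acaca (1.15 ± 0.122) and Elovl6 (0.953 ± 0.0208) followed. No neighbours in this order had overlapping ranges over the 3 libraries.

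In endogenous cells the order was Elovl1 (109 ± 7.95 TPM), Fads2 (80.9 ± 5.24), Acly (57.8 ± 5.32), Scd1 (53.2 ± 16.3), Scd2 (41.1 ± 5.31), Fads1 (37.1 ± 1.02), Elovl5 (35 ± 3.04), Elovl6 (11.5 ± 4.22), Fasn (9.70 ± 0.139) and Acaca (3.25 ± 1.59). Each gene from Acly to Fads1 overlapped in range with the one after it, as did Elovl6 with Fasn. Fads2 therefore stood second in endogenous and sixth in MSC-derived cells, and Elovl5 seventh and second. The 10 genes summed to 426 to 454 TPM in endogenous and 231 to 235 TPM in MSC-derived libraries.

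**Figure D2:**
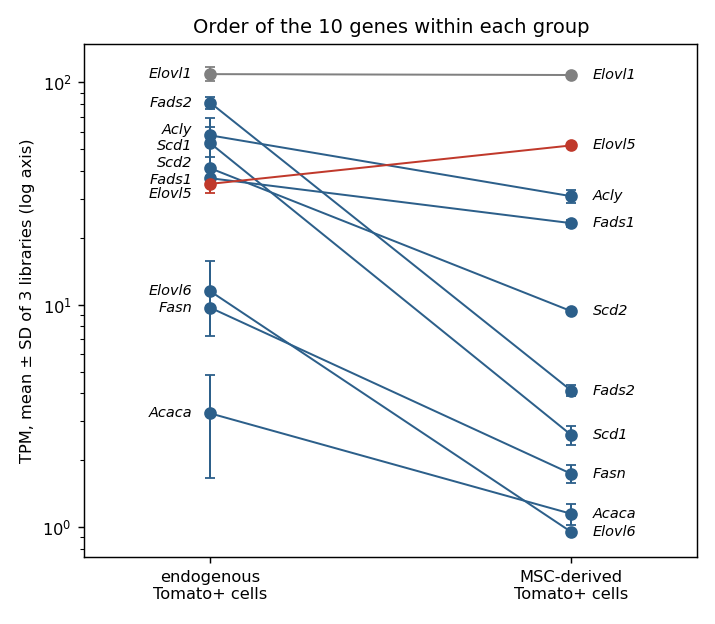
Mean TPM ± SD of 3 libraries (log axis) for each gene in endogenous (left) and MSC-derived (right) Tomato+ cells, joined by a line that is blue where the MSC-derived mean is lower, red where it is higher and grey for Elovl1. Elovl1 leads in both groups at 109 and 108 TPM, while Fads2 goes from 80.9 to 4.12 TPM and Elovl5 from 35 to 52.1 TPM.

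The balance between enzymes of one kind was compared within each library, as a difference in log2 TPM that no scaling between libraries can move. Fads1 minus Fads2 was 2.55, 2.59 and 2.36 in MSC-derived and -1.05, -1.19 and -1.13 in endogenous libraries. Fads1 was thus the more abundant of the pair in every MSC-derived library and Fads2 in every endogenous one. Scd1 minus Scd2 was -2.01, -1.78 and -1.76 against 0.61, 0.17 and 0.24, so that Scd1 made up 19.9% to 22.8% of their summed TPM in MSC-derived and 53.0% to 60.4% in endogenous libraries, with the same doubt about their split. Elovl6 minus Elovl5 was -5.77, -5.83 and -5.72 against -1.25, -2.05 and -1.70. Elovl5 was the higher of these in all 6 libraries, by a wider margin in MSC-derived ones. Fasn minus Acaca was 0.28, 0.70 and 0.82 against 0.92, 2.19 and 1.94, and its lowest endogenous value, in replicate 1, was close to the highest MSC-derived one. The group differences were 3.62 for the Fads pair, -2.19 for the Scd pair, -4.11 for the Elovl pair and -1.08 for Fasn and Acaca. None of the 4 pairs overlapped between groups, which gave each an exact two-sided permutation p of 0.10 (0.10 after Benjamini-Hochberg adjustment over the 4), the smallest that 3 against 3 libraries allow.

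**Figure D3:**
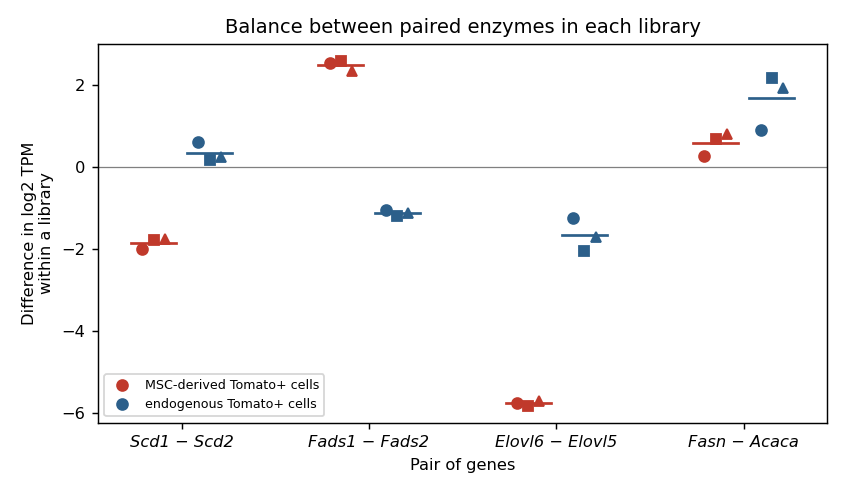
Difference in log2 TPM between the genes of a pair within each library, in red for MSC-derived and in blue for endogenous Tomato+ cells, with a marker shape for each replicate number and bars at the group means. The Fads pair lies above 0 in red (mean 2.50) and below 0 in blue (mean -1.12), and the Scd pair the other way round (-1.85 and 0.34).

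Other genes of the pathway were called in both directions. Over 6 further lists 49 of 56 listed genes were tested. Of these 26 were higher and 13 lower in MSC-derived cells, with a median log2 fold change of 0.66. On the log2(TPM + 1) scale 18 were higher and 19 lower, and on the log2(FPKM + 1) scale 29 and 13. Over all tested genes 31.3% were higher and 30.3% lower in the count test, which is the background for its calls in each list below. For the calls on the log2(TPM + 1) scale the background was 3124 higher and 5962 lower over the same genes. That scale thus moved calls toward lower in general. The elongation cycle that all Elovl enzymes share had 4 of 6 genes higher and 1 lower, but 2 higher and 2 lower on the log2(TPM + 1) scale. Hacd4, a dehydratase, was at 102, 96.8 and 102 CPM against 7.66, 11.3 and 10.5 CPM (log2 fold change 3.35, SE 0.16, adjusted p = 1.45e-06), while Hacd1, a muscle form, was lower (-1.05, SE 0.15, adjusted p = 0.000714). Hsd17b12, the ketoacyl reductase of the cycle and named after its values were seen, was 2.46-fold higher (log2 fold change 1.30, SE 0.08, adjusted p = 6.52e-06).

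Among the other elongases and desaturases 6 of 10 genes were tested, with 4 higher and 2 lower. On the log2(TPM + 1) scale the balance turned, to 2 higher and 3 lower. The counts of those at both ends were low. Elovl4, which makes the very longest chains, had 0, 7 and 8 counts in MSC-derived and 166, 189 and 174 in endogenous libraries (log2 fold change -5.16, SE 0.77, adjusted p = 0.000817, and -4.56 without MSC-derived replicate 1). Fads6 had 58, 48 and 60 counts against 1, 2 and 20 (2.79, SE 0.96, adjusted p = 0.0372), and its call was lost without any 1 of the MSC-derived libraries or endogenous replicate 2, with adjusted p of up to 0.115. Endogenous replicate 3 held most of its counts in that group, and without it the log2 fold change was 5.0.

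The supply of acetyl-CoA, malonyl-CoA, NADPH and electrons split by enzyme. Of 13 genes 6 were higher, 3 lower and 4 not called, whereas on the log2(TPM + 1) scale 5 were higher and 6 lower. Me1, the cytosolic malic enzyme that yields NADPH, was at 10.2, 11.3 and 15.6 CPM in MSC-derived and at 108, 79.3 and 83.8 CPM in endogenous libraries (log2 fold change -2.87, SE 0.20, adjusted p = 1.18e-05). Cyb5a, the cytochrome b5 that passes electrons to desaturases, was at 456, 458 and 466 CPM against 63.9, 78.5 and 80.2 CPM (2.63, SE 0.10, adjusted p = 5.81e-07). The other sources of cytosolic NADPH, picked after their values were seen, were higher: G6pdx (log2 fold change 2.55), Idh1 (2.02) and Pgd (1.62). Acyl-CoA synthetases, which activate free fatty acids, had 3 of 4 tested genes higher (2 on the log2(TPM + 1) scale), led by Acsl1 (1.49, SE 0.11, adjusted p = 1.73e-05), and Acsl3 lower (-0.71, SE 0.13, adjusted p = 0.00246). The separate mitochondrial synthesis route had 4 of 5 tested genes higher (3 on the log2(TPM + 1) scale), from Mecr, its enoyl reductase (1.23, SE 0.21, adjusted p = 0.00145), to Oxsm, its ketoacyl synthase (0.72, SE 0.24, adjusted p = 0.0348). The call of Oxsm was lost without any 1 of the MSC-derived libraries or endogenous replicates 2 or 3, with adjusted p of up to 0.0941.

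The known regulators of the 10 genes were also called in both directions. Of 15 tested 5 were higher, 6 lower and 4 not called, shares near the 31.3% and 30.3% of all tested genes in the count test. On the log2(TPM + 1) scale 4 were higher and 7 lower. Srebf1, which encodes SREBP-1, was at 104, 96.0 and 102 CPM in MSC-derived and at 87.9, 116 and 111 CPM in endogenous libraries. These ranges overlapped, and the log2 fold change was -0.06 (SE 0.12, adjusted p = 0.686), with a positive sign on library size or FPKM scaling. Without endogenous replicate 1 it was -0.22 (adjusted p = 0.00143), and on the log2(TPM + 1) scale -0.48 (limma, adjusted p = 0.00248).

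Srebf2, whose product mainly drives cholesterol genes, was lower (83.7, 79.5 and 82.6 against 115, 136 and 137 CPM, log2 fold change -0.66, SE 0.09, adjusted p = 0.000544). So was Insig1, an SREBP target that holds SREBP in the endoplasmic reticulum (85.3, 83.6 and 81.7 against 168, 183 and 183 CPM, -1.09, SE 0.07, adjusted p = 1.02e-05). Nr1h3, encoding liver X receptor alpha, was instead higher, at 141, 141 and 148 CPM against 4.54, 12.6 and 11.6 CPM (log2 fold change 3.90, SE 0.34, adjusted p = 4.31e-05). Pparg, a master factor of fat cells that macrophages also express, was at 196, 195 and 213 CPM against 14, 10.9 and 11.5 CPM (4.05, SE 0.12, adjusted p = 1.94e-07). The macrophage markers were higher in the same libraries, and their part in both values was not tested.

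Mlxipl was near the detection limit, with 0, 5 and 4 counts in MSC-derived and 39, 22 and 38 in endogenous libraries. Its log2 fold change of -3.46 (SE 0.91, adjusted p = 0.0127) missed the threshold without MSC-derived replicate 3 (adjusted p = 0.0594) and was -2.87 without MSC-derived replicate 1. Prkaa2, an AMP-activated kinase subunit prominent in muscle, had 7, 6 and 3 counts against 331, 198 and 160 (-5.48, SE 0.48, adjusted p = 4.1e-05). Prkaa1, which encodes the other catalytic subunit and was named after its values were seen, went the other way. It was at 39.1, 39.2 and 41.8 CPM against 17.2, 21.2 and 20.7 CPM (log2 fold change 1.02, SE 0.12, adjusted p = 0.000241).

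**Figure D4:**
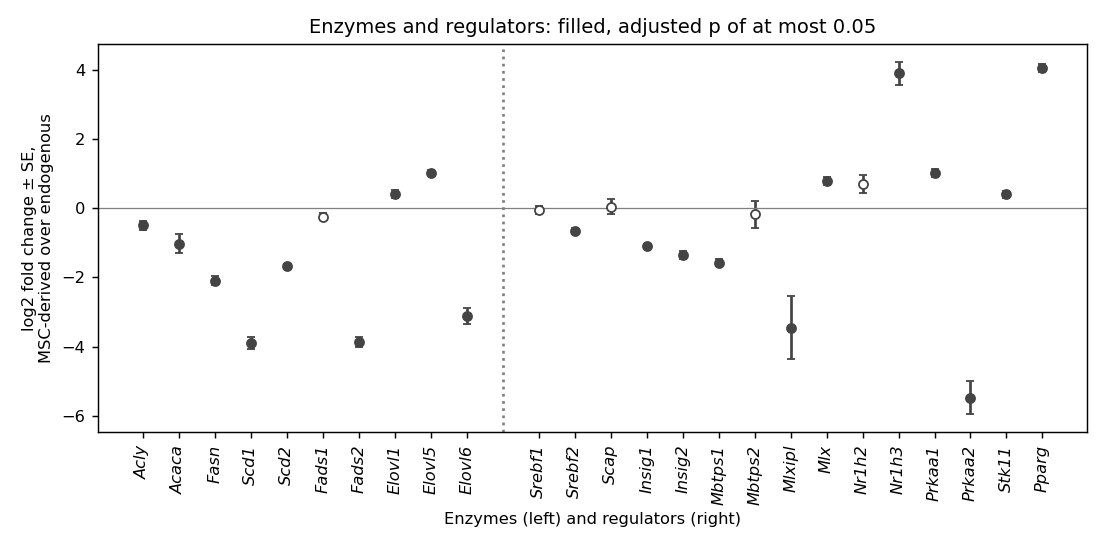
log2 fold change ± SE of the 10 enzymes (left of the dotted line) and of 15 regulators (right), positive where MSC-derived Tomato+ cells are higher; filled points have an adjusted p of at most 0.05. Srebf1 lies at -0.06 while Nr1h3 (3.90) and Pparg (4.05) lie above and Prkaa2 (-5.48) below all the enzymes.

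Cholesterol synthesis, which shares acetyl-CoA and SREBP control, and fatty acid oxidation, which runs the other way, were counted in the same manner. Of 20 cholesterol synthesis enzymes, all tested, 13 were lower and 5 higher in MSC-derived cells, with a median log2 fold change of -1.07. Sqle, squalene epoxidase, was lowest, at 9.97, 12.8 and 12 CPM against 105, 76.8 and 80.2 CPM (-2.92, SE 0.17, adjusted p = 4.04e-06). Mvd, which makes isopentenyl diphosphate, was highest (1.04, SE 0.28, adjusted p = 0.0137), a call lost without MSC-derived replicate 1 (adjusted p = 0.0598). On the log2(TPM + 1) scale 14 were lower and 0 higher. Of 24 fatty acid oxidation enzymes 14 were higher and 4 lower, with a median of 0.62 (10 and 4 on the log2(TPM + 1) scale). Etfb, an electron carrier subunit, was highest (2.34, SE 0.16, adjusted p = 9.38e-06), and Cpt1c, a carnitine palmitoyltransferase form known from neurons, lowest (-1.91, SE 0.17, adjusted p = 5.19e-05). Whether these lists differ from the 10 genes was not tested.

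**Figure D5:**
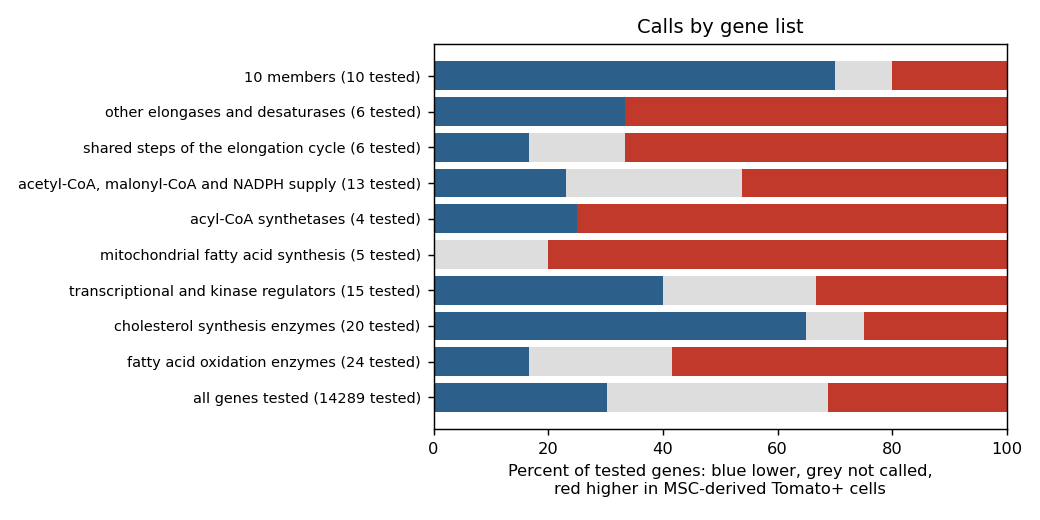
Percent of the tested genes of each list that were lower (blue), not called (grey) or higher (red) in MSC-derived Tomato+ cells. The 10 enzymes (7 lower, 2 higher) and the cholesterol synthesis enzymes (13 lower, 5 higher, of 20) have most of their bar in blue, whereas all tested genes divide into 30.3% lower and 31.3% higher.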

How the data were processed

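Tomato+ cells from 2 groups of 3 libraries were sequenced as bulk RNA, prepared with a TruSeq kit. Read cleaning was by SOAPnuke, alignment by HISAT2 (genome) and Bowtie2 (gene set), and quantification by RSEM, all done by the authors; the submitters' processing notes list mm9, Bowtie2 2.2.5 and RSEM 1.2.12. The authors deposited expected counts per gene, FPKM, TPM and a normalized read count, a signal not used here. The 8 columns of group averages were not used either.

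Expected counts were rounded (20.6% of values were not whole), filtered with filterByExpr, scaled by TMM and tested with edgeR 4.0.16 (quasi-likelihood, no block) in R 4.3.3, with Benjamini-Hochberg adjustment over 14289 genes and a threshold of 0.05. The SE given with a log2 fold change was derived from the edgeR test, as its absolute value divided by the square root of the F statistic. DESeq2 1.42.0 and limma 3.58.1 served as alternatives. The edgeR steps were tested on simulated counts for this comparison, with 200 of 14289 genes changed: 43% of 2-fold and 82% of 4-fold changes were recovered. Of the calls 6.02% were false. The simulation changed far fewer genes than were called in the data and gave both groups the same spread. It therefore does not show what is recovered where most genes differ and 1 group varies more. TPM, as deposited by the authors, was used for levels between genes. Coordinates are those of RefSeq on GRCm38.p6.

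The 10 genes, the other lists and the markers were chosen with earlier results of these data known. Named in the text were all 10 genes, the genes with the highest and lowest log2 fold change in each list, 6 regulators (Srebf1, Srebf2, Mlxipl, Nr1h3, Insig1 and Pparg) and up to 3 genes of a marker list; others are marked as chosen later. The study gives 3 mice for each group; as no label ties a library to a mouse, p-values measure the spread between libraries.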

Additional observations from a re-analysis of the deposited data

How the results depend on the processing

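Fasn, Scd1, Scd2, Fads2, Elovl5 and Elovl6 kept their direction and their call in all 19 settings tried. The number of the 10 enzymes called higher fell from 2 to 1 under upper quartile normalization, under limma on log2(TPM + 1), a setting chosen after the data were seen, and at an adjusted p of at most 0.001; leaving out 1 library in turn gave 1 to 2. The gene lost was Elovl1, reversed at -0.01 under limma on log2(TPM + 1). Acly and Acaca kept their sign but missed the threshold in 4 and 6 settings, with log2 fold changes of -0.89 to -0.34 and -1.24 to -0.48. The 0.001 limit called 2134 genes higher and 2380 lower over all genes, and 14 of the genes in the 6 other pathway lists higher, in each case a stricter limit on the same fit.

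The replicate numbers carried by both groups do not stand for shared mice, and deviations of same-numbered libraries correlated at 0.0129, 0.00221 and 0.0178. With the replicate block 4103 genes were higher and 3920 lower, and of the 10 enzymes 2 were higher and 7 lower. Fads1, not called without the block, had an adjusted p of 0.154 with it. Depth limits genes such as Elovl4, Fads6 and Mlxipl, whose lower group held few counts. Acaca, Elovl6, Scd1 and Fads2 rest on 100 to 244 counts in each MSC-derived library.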

Other observations

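A few genes of the pathway were left out of every comparison because their counts were too low to be tested, and are given as values. Htd2, a dehydratase of mitochondrial fatty acid synthesis, had 0, 0 and 17 counts in MSC-derived and 131, 0 and 0 in endogenous libraries, so that 1 library in each group held all of them. Acsl6, an acyl-CoA synthetase, had 1, 6 and 1 counts in MSC-derived and 37, 9 and 31 in endogenous libraries. Among the 10 enzymes, endogenous replicate 1 was the highest library of its group for Acaca, Scd1, Scd2, Elovl5 and Elovl6, and the lowest for Acly, Fasn, Fads1, Fads2 and Elovl1. Cidec, a lipid droplet protein of fat cells that was named after its values were seen, had 109 counts in that library against 18 and 15 in the other endogenous ones, and 0, 6 and 4 in the MSC-derived ones.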
